A study of Mus musculus with 64 samples.

Results

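The 10 genes described here encode enzymes that make glucose or break down amino acids in the liver, together with a coactivator of their transcription. They are G6pc, Pck1, Fbp1, Pcx, Ppargc1a, Tat, Sds, Gpt, Got1 and Tdo2, chosen by symbol from the 23338 genes of the read count files, and all 10 were found there. RNA-seq had been carried out on 64 samples of C57BL/6 mice (C57BL/6 J in the study's methods) without any treatment or genetic change. The samples were 12 single eight-cell embryos (6 male, 6 female), 4 embryonic stem (ES) cell lines kept in 2i, a medium with a pair of kinase inhibitors (2 male, 2 female), 24 late-gestation fetal livers and 24 adult livers (12 of each sex at each stage). Adults had been kept on standard chow and killed in the late morning, and the ES lines had been derived from eight-cell embryos. The labels do not say which livers came from the same litter, so p-values measure the spread between these samples.

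Gluconeogenesis builds glucose from lactate, glycerol and amino acids and is known for starting in rodent liver around birth, when the supply of glucose through the placenta ends. Pcx and Pck1 open the pathway from pyruvate, Fbp1 acts in its middle, and G6pc releases free glucose. Aminotransferases and other amino acid enzymes pass on nitrogen and supply carbon skeletons, and glucagon, glucocorticoids and insulin are known to act on many of these genes.

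Read totals over genes ran from 9857929 to 10386931 in the ES lines, from 4659656 to 7725432 in embryos, from 5145371 to 8499603 in fetal livers and from 1567583 to 4757610 in adult livers. Levels below are counts per 1000000 of these reads (CPM), and 3 reads corresponded to 0.631 to 1.91 CPM in an adult liver and to 0.353 to 0.583 CPM in a fetal liver. Summed hepatocyte markers (10 of 10 with reads, among them Alb and Ttr) were at 62645 to 91413 CPM in adult and 52347 to 70634 CPM in fetal liver, and summed pluripotency markers at 2296 to 2534 CPM in ES cells. Fetal liver is also a blood-forming organ, with summed erythroid markers at 5596 to 7876 CPM against 47.0 to 281 CPM in adults. Summed neutrophil markers were at 1052 to 1984 against 0 to 8.08 CPM. Hbb-b1 and Hba-a1 had no reads in adults. Hba-a1 had none in fetal females either, so its lack of reads in adults is no measure of blood cells. Adult and fetal sums were 292 to 827 and 569 to 867 CPM for macrophage, 325 to 475 and 505 to 750.0 CPM for endothelial, 288 to 623 and 835 to 1659.7 CPM for stellate, 31.9 to 107 and 29.7 to 372 CPM for cholangiocyte and 11.4 to 51.2 and 10.1 to 269.6 CPM for pancreatic markers. Fetal liver female 14 stood apart in 8 intestinal genes (3744 CPM in all, against 5.02 to 13.97 in 22 others), and fetal liver female 22 in 6 adult liver genes (259.6 CPM, against 0.148 to 22.9 in the 22 others and 9326 to 30784 in adults). Results that rest on these 2 livers are given with and without them. Pancreatic markers were highest among fetal females in female 15 (269.6 CPM) and among fetal males in male 12 (130 CPM), against a median of 16.9 CPM over fetal livers. Female 15 was also the highest fetal liver in G6pc and Fbp1, and male 12 the lowest in both. No result is given without both of them, and their part was not tested.

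The RefSeq promoter table (GRCm38.p6) held 8 of the 10 genes, all but Sds and Gpt, and 3 of its windows are shown for Pck1, Tat and G6pc. Levels of these 3 were positively related in pairs among adult livers, closely for Pck1 and Tat and more loosely for G6pc. The window of Pck1, chr2:173152823-173153047 on the + strand, ends just before the gene. The capitals mark TTACGTCA, the cAMP response element known from this promoter, 68 bases before the gene start. For Tat (chr8:109990186-109990435, + strand) and G6pc (chr11:101367466-101367560, + strand) they mark CCAAT on either strand, 3 times in Tat and 2 times in G6pc. The windows stop at the GENCODE gene start, which shortens that of G6pc to 95 bases.
Pck1: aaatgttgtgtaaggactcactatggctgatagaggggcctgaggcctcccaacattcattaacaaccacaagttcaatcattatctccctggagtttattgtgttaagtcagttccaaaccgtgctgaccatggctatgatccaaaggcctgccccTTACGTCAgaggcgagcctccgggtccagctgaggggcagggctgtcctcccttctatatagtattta
Tat: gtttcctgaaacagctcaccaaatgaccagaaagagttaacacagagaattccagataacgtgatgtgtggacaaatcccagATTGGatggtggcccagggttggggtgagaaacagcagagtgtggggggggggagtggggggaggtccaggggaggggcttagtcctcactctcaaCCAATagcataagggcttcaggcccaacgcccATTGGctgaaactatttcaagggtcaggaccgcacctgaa
G6pc: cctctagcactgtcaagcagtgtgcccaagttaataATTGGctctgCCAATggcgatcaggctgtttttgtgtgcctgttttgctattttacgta

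Among all 32851 windows of 250 bases before a gene start, TTACGTCA on either strand occurred in 0.447%, and Pck1 was the only match among the 8 genes. TGACGTCA (1.55% of windows), TGTTCT (16.1%, part of a glucocorticoid receptor site) and TGTTTAC (3.17%, a forkhead motif) had no match in the 8. The search used the uncut windows, so a match can lie past the end of a printed one. TGTTTGC (4.30%) and TATAAA (12.4%) were each present in G6pc, there outside the stretch printed above, and in Tdo2, and CCAAT (33.8%) in G6pc, Fbp1, Pcx, Tat, Got1 and Tdo2. These matches describe the letters of the windows, and those printed in capitals do not overlap each other.

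The summed level of the 10 genes was 111 to 270.2 CPM in embryos, 161 to 212.5 CPM in ES cells, 829.3 to 1349 CPM in fetal livers and 6434 to 12390 CPM in adult livers. Adult livers lay above fetal livers in all 24 against 24 libraries for G6pc, Pck1, Fbp1, Tat, Sds, Gpt, Got1 and Tdo2, so that the ranges of the 2 stages did not overlap for 8 of the 10 genes. Ranges that did not overlap were found for 48.3% of the 12875 genes tested. Pcx was level between the livers in CPM and Ppargc1a was lower in adults.

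**Figure D1:**
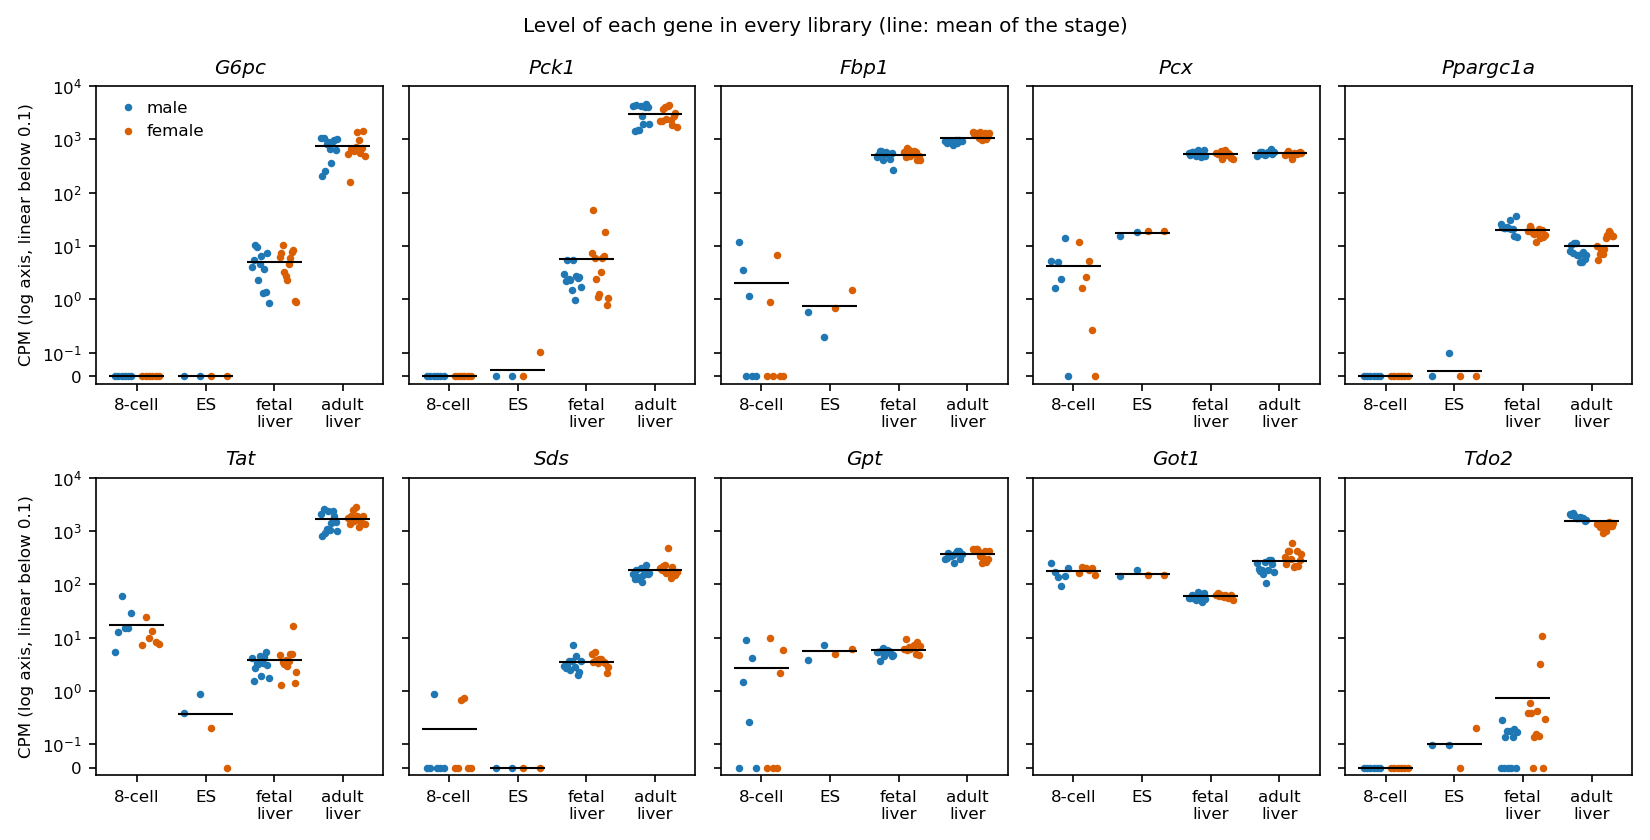
Level of each of the 10 genes in CPM (log axis, linear below 0.1) in every library by stage, males in blue and females in orange, with the mean of each stage as a line. G6pc, Pck1, Tat, Sds, Gpt and Tdo2 are at or below 47.7 CPM in every fetal liver and at or above 109.8 CPM in every adult liver, while Pcx lies between 420 and 654 CPM at both stages.

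G6pc, the catalytic subunit that frees glucose from its phosphate (chr11:101367561-101377903), had no reads in the 4 ES lines or the 12 embryos. It lay at 0.860 to 10.7 CPM in fetal livers (median 4.66) and at 158 to 1453 CPM in adult livers (median 681), 740.4 ± 334 CPM on average (SD, n = 24). The adult mean was 149.5 times the fetal mean, with a log2 fold change of 7.77 ± 0.28 (SE, edgeR, adjusted p = 4.05e-29). No adult liver came near the fetal range.

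Pck1, the cytosolic phosphoenolpyruvate carboxykinase (chr2:173153048-173159273), had 1 read in 1 ES line and none in embryos. Fetal livers ranged from 0.770 CPM to 47.7 CPM with a median of 2.55, and adult livers from 1412 to 4513 CPM with a median of 2710.1. The highest fetal values were those of females 14 (47.7 CPM) and 22 (18.5 CPM), and the other 22 stood at 0.770 to 7.31 CPM. The log2 fold change of 9.70 ± 0.39 (SE, edgeR, adjusted p = 2.11e-27) was 10.44 without these 2 livers, and the ratio of mean CPM went from 528.7 to 953.9.

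Fbp1, the fructose bisphosphatase of liver (chr13:62864753-62888282), was already abundant before birth. Fetal livers stood at 261 to 677 CPM (median 523) and adult livers at 778 to 1385 CPM (median 984), a log2 fold change of 1.59 ± 0.07 (SE, edgeR, adjusted p = 1.83e-29). The 4 ES lines had 0.578, 0.194, 0.700 and 1.52 CPM, and 5 of 12 embryos had reads. The lowest fetal liver was male 12, well under the next at 407 CPM, and the highest was female 15. Both stood out in pancreatic markers, as given above.

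Pcx, the mitochondrial pyruvate carboxylase (chr19:4510472-4621752), had a median of 527 CPM in fetal liver (420 to 633) and of 543 CPM in adult liver (434 to 654). The 2 ranges overlapped almost wholly. The log2 fold change was 0.60 ± 0.04 (SE, adjusted p = 7.18e-19) with TMM scaling in edgeR, 0.04 (adjusted p = 0.4) with plain read totals, and -0.27 when libraries were scaled to the hepatocyte markers, so no direction is given for Pcx. TMM (trimmed mean of M-values) sets most genes level between libraries, and the median log2 fold change of all genes was -0.05 with it, -0.61 with plain totals and -0.92 with hepatocyte scaling.

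Ppargc1a, which encodes PGC-1α, a coactivator that drives gluconeogenic genes (chr5:51454250-51567726), went the other way. Fetal livers had 12.1 to 36.1 CPM (median 20.6) and adult livers 5.03 to 19.1 CPM (median 8.26), and the ranges overlapped. The log2 fold change was -0.52 ± 0.13 (SE, edgeR, adjusted p = 0.000246) and -1.08 with plain totals. ES cells had 1 read in 1 line and embryos had none.

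Tat, tyrosine aminotransferase and a classical glucocorticoid target (chr8:109990437-109999803), stood at 1.30 to 16.6 CPM in fetal liver (median 3.31), where the highest was female 22 and the next was at 5.44 CPM. Adult livers had 804 to 2779 CPM (median 1629), a log2 fold change of 9.34 ± 0.23 (SE, edgeR, adjusted p = 1.71e-36) and of 9.51 without females 14 and 22. All 12 embryos had Tat reads, at 5.44 to 60.9 CPM with a median of 13.004, so their range overlapped that of fetal livers and lay above the ES lines (0 to 0.875 CPM).

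Sds, serine dehydratase, which turns serine into pyruvate (chr5:120476526-120483932), had 1.94 to 7.27 CPM in fetal liver (median 3.50) and 109.8 to 469 CPM in adult liver (median 167). The fold change on the log2 scale was 6.24 ± 0.14 (SE, edgeR, adjusted p = 2.08e-39). Female 18 was the adult liver at 469 CPM, and all others were below 226 CPM. No ES line had a read, and 3 of 12 embryos had 4 reads each.

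Gpt, the alanine aminotransferase that converts alanine to pyruvate (chr15:76695716-76699686), had 3.64 to 9.42 CPM in fetal liver (median 5.70), with female 14 highest, and 249 to 465.6 CPM in adult liver (median 363). It differed by 6.52 ± 0.09 on the log2 scale (SE, edgeR, adjusted p = 2.39e-52). The 4 ES lines, at 3.85, 7.29, 5.00 and 6.19 CPM, lay within the fetal range, and 7 of 12 embryos had reads (0 to 9.97 CPM).

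Got1, the cytosolic aspartate aminotransferase (chr19:43499752-43524605), had reads in every sample of every stage. Embryos had 91.6 to 248 CPM (median 176), the 4 ES lines 141, 186, 149.8 and 149 CPM, fetal livers 46.1 to 71.0 CPM (median 58.9) and adult livers 107 to 599 CPM (median 241). Fetal liver was thus lowest, apart from every other stage, while adult livers, embryos and ES lines overlapped. Adult against fetal liver gave a log2 fold change of 2.73 ± 0.11 (SE, edgeR, adjusted p = 1.37e-27).

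Tdo2, tryptophan dioxygenase, which opens the breakdown of tryptophan in liver (chr3:81957090-81976202), changed most of the 10. Adult livers stood at 904 to 2204 CPM (median 1489) and fetal livers at 0 to 10.54 CPM (median 0.164), with reads in 17 of 24. Of the 126 fetal reads, 73 were in female 22 (10.54 CPM) and 27 in female 21 (3.18 CPM). The log2 fold change was 11.44 ± 0.34 (SE, edgeR, adjusted p = 5.48e-33) and 12.62 without females 14 and 22, and the ratio of mean CPM was 2104 and 5297. Embryos had no Tdo2 reads and ES lines 4 in all.

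With TMM scaling, adult against fetal liver thus called all 10 genes, 9 higher and 1 lower in adults, with a median log2 fold change of 6.38 beside -0.05 over all genes. A gene is called where the adjusted p is under 0.1 and the log2 fold change is over 0.5 in size. Of the 12875 genes tested, 67.0% were called, 31.7% higher and 35.3% lower. In bulk tissue, fewer cells of a type and less RNA per cell cannot be told apart, and blood-forming cells, whose markers moved as given above, make up part of the fetal libraries. Their part in the result was not tested beyond the scaling to hepatocyte markers, under which 8 of the 10 were higher, with a median of 5.50, and Ppargc1a was lower at -1.39. With that scaling 1769 of the 12875 genes were called higher and 8271 lower, with a median of -0.92 over all genes.

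**Figure D2:**
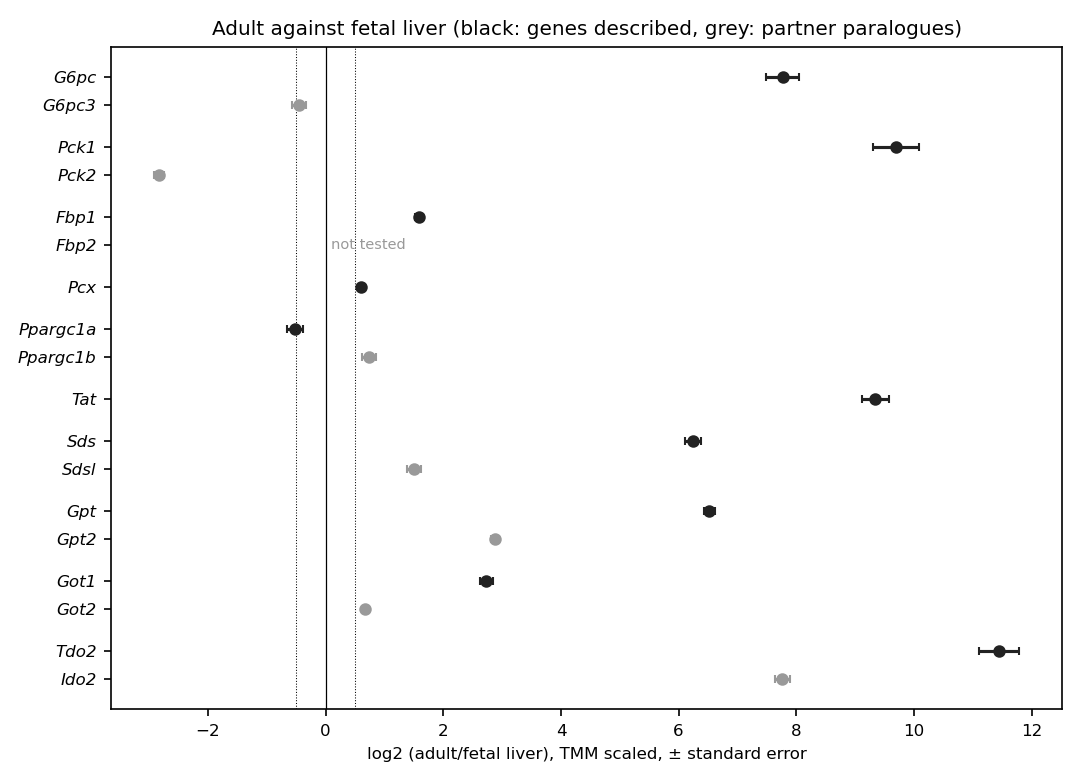
Log2 fold change of adult over fetal liver (edgeR, TMM scaling) with its standard error for the 10 genes in black and their partner genes in grey, and dotted lines at -0.5 and 0.5. Pck1 at 9.70 and its mitochondrial partner Pck2 at -2.83 lie on opposite sides of 0.

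Per kilobase of exon, which allows genes to be compared roughly, adult liver levels ran in the order Pck1 (864 CPM per kb), Tat (699), Fbp1 (619), Tdo2 (395), G6pc (307), Gpt (123), Pcx (114), Sds (107), Got1 (107) and Ppargc1a (1.495). In fetal liver the order was led by Fbp1 (302 CPM per kb), Pcx (111) and Got1 (23.1), and Ppargc1a stood at 3.09 CPM per kb. The other 6 genes were between 0.188 CPM per kb (Tdo2) and 2.09 CPM per kb (Sds) before birth, and Tdo2 was at 0.0745 without females 14 and 22. Exons were those of GENCODE and may differ from the annotation used for counting.

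Several of these enzymes have a partner gene with a related product in another compartment or tissue. Pck2, the mitochondrial carboxykinase, had 39.4 to 64.5 CPM in fetal liver and 2.22 to 9.04 CPM in adult liver, a log2 fold change of -2.83 ± 0.08 (SE, edgeR, adjusted p = 2.07e-38), opposite to Pck1. In fetal livers the level per kb of Pck2 (6.75) exceeded that of Pck1 (1.63, and 0.906 without females 14 and 22), and in adult livers it was 0.653 against 864.

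Ido2, a tryptophan-degrading relative of Tdo2, was higher in adult liver by 7.76 on the log2 scale (0 to 0.520 CPM in fetal and 21.6 to 61.2 CPM in adult livers), Gpt2, the mitochondrial alanine aminotransferase, by 2.88 (87.8 to 135 against 362 to 722 CPM) and Sdsl, a relative of Sds, by 1.50. Got2, the mitochondrial aspartate aminotransferase, was at 430.3 to 501 and 433 to 552 CPM, and Ppargc1b, a relative of Ppargc1a, at 3.06 to 10.6 and 3.15 to 12.1 CPM. Their calls, at 0.67 and 0.74 with TMM, were lost with plain totals (0.11 and 0.17) and turned in sign with hepatocyte scaling (-0.20 and -0.12). G6pc3, a widely expressed phosphatase, was not called (-0.45), and passed as lower with plain totals (-1.02). Fbp2, the muscle bisphosphatase, had too few reads in liver to be tested, at 0 to 0.803 CPM in fetal livers without female 14 (88.3 CPM), yet 69.9 to 399 CPM in embryos.

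The wider pathway genes moved mostly with the 10. Of 16 other genes of glucose output, 13 were higher in adult liver, 2 lower and 1 not called, with a median log2 fold change of 1.38. Among them Aqp9, a glycerol channel, rose by 4.36 and Slc25a10, the dicarboxylate carrier, by 2.71. Pdk4, a kinase that blocks pyruvate dehydrogenase (-0.87), and Ldha, a lactate dehydrogenase subunit (-0.64), were lower. With hepatocyte scaling 8 of the 16 were higher and 3 lower.

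Of 17 regulators, 11 were higher and 4 lower in adult liver (median 0.59), a split that became 6 and 6 with hepatocyte scaling (median -0.27). Nr0b2, the repressor SHP, rose by 6.44, the glucagon receptor gene Gcgr by 3.32 and Cebpb, a transcription factor, by 2.93. Foxo3 (-1.27), Creb1 (-0.75) and Sirt1 (-0.66), all known to act on gluconeogenic genes, were lower with each scaling. Among 13 tested genes that respond to hormones or fasting, 8 were higher and 4 lower (median 1.38), and 7 and 5 with hepatocyte scaling. Cpt1a of fatty acid oxidation (2.95) and Tsc22d3, a glucocorticoid target (2.77), rose, while Igfbp1 (-2.22), Cdkn1a (-0.85) and Fkbp5 (-0.72) fell.

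Amino acid enzymes were higher in adults almost throughout. All 10 genes of aromatic and tryptophan breakdown were higher (median 3.11), with Kmo at 3.67 and Hpd at 3.57. Hepatocyte scaling left 9 of them. Of 34 tested genes of other amino acid breakdown, 32 were higher and none was lower (median 2.25), led by Prodh, proline dehydrogenase (5.73), Hal, histidase (4.50), and Oat, ornithine aminotransferase (4.41). With hepatocyte scaling it was 29 higher and 1 lower.

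Fetal liver against the ES lines, a comparison that shares the fetal livers with the one above, called 8 of the 9 genes tested, 7 higher and 1 lower in fetal liver. Of the 14333 genes tested, 76.7% were called, 40.5% higher and 36.2% lower, and the median of all genes moved from 0.03 to -0.11 with plain totals. Fbp1 was higher by 9.55 ± 0.31 and Pcx by 5.03 ± 0.14 on the log2 scale (SE, edgeR, adjusted p = 1.71e-22 and 9.03e-26). Tat was higher by 3.42 ± 0.62 (SE, adjusted p = 8.63e-06). Got1 was lower, at -1.27 ± 0.07 (SE, adjusted p = 7.68e-17), and Gpt did not pass at 0.20 ± 0.15 (SE, adjusted p = 0.208).

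Where ES cells had no reads the ratio is a lower bound. G6pc was at least 68.3-fold higher in fetal liver (adjusted p = 1.35e-06, edgeR) and Sds at least 48.2-fold (adjusted p = 2.34e-13), taking 3 reads over the 4 lines as the limit. With 1 read over the 4 lines, the ratio of pooled CPM was 231.5 for Pck1 (95% exact interval 41.5 to 9153, adjusted p = 0.000131, edgeR) and 823.5 for Ppargc1a (148 to 32530.0, adjusted p = 1.8e-19). Without fetal females 14 and 22, which held about as many Pck1 reads as the other 22 livers, the ratio for Pck1 was 128 (22.9 to 5073, adjusted p = 4.94e-07). Tdo2 had too few reads to be tested. These bounds and intervals cover counting error only.

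Embryo libraries had gone through the amplification of a single-cell method that no other stage had. The method and the stage cannot be told apart in them, and no stage test was made. Got1 and Tat were the members with reads in all 12 embryos, Pcx had reads in 10, Gpt in 7, Fbp1 in 5 and Sds in 3. G6pc, Pck1, Ppargc1a and Tdo2 had none over 73213414 reads, which allows up to 0.0410 CPM over the stage as a whole. Embryo levels of Pcx (0 to 14.3 CPM) and of Fbp1 (0 to 12.003 CPM) lay below every fetal liver.

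Between adult males and females, 3 of the 10 genes were called, Tdo2 higher in males and Got1 and Ppargc1a lower. Of the 10372 genes tested, 9.49% were called, 3.01% higher and 6.48% lower in males. The median log2 fold change of the 10 genes was -0.16 (males over females), and the other 7 genes were not called. Over the settings tried, the log2 fold change was 0.46 to 0.66 for Tdo2 and -0.77 to -0.61 for Got1. Tdo2 thus fell under the threshold of size in at least 1 setting, and Got1 missed the adjusted p threshold in at least 1.

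Tdo2 stood at 1510.0 to 2204 CPM in males (median 1769) and at 904 to 1468 CPM in females (median 1244). Every male lay above every female. The mean was 1827 ± 200 CPM in males and 1237 ± 156 CPM in females (SD, n = 12 each), a log2 fold change of 0.55 ± 0.07 (SE, edgeR, adjusted p = 3.33e-07).

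Got1 ranged from 107 to 285 CPM in males (median 190) and from 206 to 599 CPM in females (median 313). The ranges overlapped between 206 and 285 CPM. The log2 fold change was -0.72 ± 0.19 (SE, edgeR, adjusted p = 0.00571). Fbp1 differed with a smaller spread, at 778 to 987 CPM in males (median 921) and 981 to 1385 CPM in females (median 1248), where 1 male overlapped the females. Its log2 fold change of -0.43 ± 0.06 (SE, edgeR, adjusted p = 2.08e-06) stayed under the threshold of size.

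Ppargc1a was low in both sexes, at 5.03 to 11.4 CPM in males (median 7.13) and 5.40 to 19.1 CPM in females (median 11.9), with a log2 fold change of -0.59 ± 0.19 (SE, edgeR, adjusted p = 0.0220). Its high values were those of females 19 to 24, at 13.96 to 19.1 CPM, and females 13 to 18 stood at 5.40 to 9.82 CPM, within the male range. The same 6 females were those with at least 30% of counted reads outside genes. Among the 6 males and 6 females under 30% the log2 fold change was -0.06 (adjusted p = 0.874), and among the 6 and 6 at or above 30% it was -0.99 (adjusted p = 0.000691), although males at or above 30% had 5.59 to 11.4 CPM. The part of this read share in the difference was not tested further. The call was also lost without the 8 livers with under 40% of mapped reads on genes (-0.30, adjusted p = 0.413).

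The others had adult sex differences of -0.36 ± 0.18 (Sds, adjusted p = 0.136), -0.18 ± 0.21 (Tat), -0.14 ± 0.11 (Gpt), 0.05 ± 0.24 (Pck1), 0.04 ± 0.05 (Pcx) and -0.00 ± 0.30 (G6pc), each a log2 fold change with its SE. Around the 10 genes, Pck2 was lower in males (-0.52) and Ppargc1b higher (0.63, adjusted p = 0.00694), the latter opposite in sign to Ppargc1a. Gpd1, the cytosolic glycerol phosphate dehydrogenase, was higher in males (0.54), while Pdk4 (-0.76) and the pyruvate carrier gene Mpc2, listed as Brp44 (-0.61), were lower, with 13 of 16 glucose output genes not called.

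Of the 17 regulators Cebpb was the 1 called (0.91, adjusted p = 0.00666), at a mean of 93.7 CPM in males and 49.1 CPM in females. Fkbp5, a glucocorticoid-induced chaperone gene, was the called gene of 12 tested responsive genes (-1.25, adjusted p = 0.00159), at a mean of 31.3 CPM in males and 74.2 CPM in females. Hpd (-0.64) was lower in males among 10 aromatic enzymes, and Agxt (-0.67), Mat1a (-0.73) and Cdo1 (-0.54), of glyoxylate, methionine and cysteine metabolism, among 34 others. Summed erythroid markers were at 196 to 281 CPM in adult males and 47.0 to 105 CPM in adult females. Among them Alas2, of heme synthesis, was called (2.79, adjusted p = 4.67e-18), Tfrc did not pass (0.16, adjusted p = 0.558) and the other 6 had too few reads to be tested. Their part in these differences was not tested.

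In fetal liver, 1 of 9 tested genes was called between the sexes, against 4.64% of the 12930 genes tested (3.81% higher and 0.828% lower in males). Pck1 was lower in males, at 0.978 to 5.54 CPM (median 2.44) against 0.770 to 47.7 CPM in females (median 4.57). The male range lay inside the female one. The log2 fold change was -1.65 ± 0.59 (SE, edgeR, adjusted p = 0.0396), and it was -0.90 (adjusted p = 0.137) without female 14 and -0.44 (adjusted p = 0.401) without females 14 and 22, so the call rests on these livers.

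Ppargc1a was higher in fetal males (23.02 ± 5.81 against 17.8 ± 3.19 CPM, SD, n = 12 each) by 0.37 ± 0.12 on the log2 scale (SE, edgeR, adjusted p = 0.0215), under the threshold of size. Gpt was lower in fetal males, at -0.35 ± 0.10 (SE, edgeR, adjusted p = 0.0127), also under it. The highest fetal livers in Gpt were females 14 (9.42 CPM) and 22 (8.08 CPM), with the other 22 at 3.64 to 7.11 CPM. Over the settings tried, among them leaving out these 2, the difference was -0.39 to -0.18, with adjusted p up to 0.930 (edgeR or DESeq2). Fetal males had 39.9 to 49.0% of counted reads outside genes and fetal females 34.1 to 38.1%, with no overlap, so this share and sex cannot be told apart in fetal liver.

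**Figure D3:**
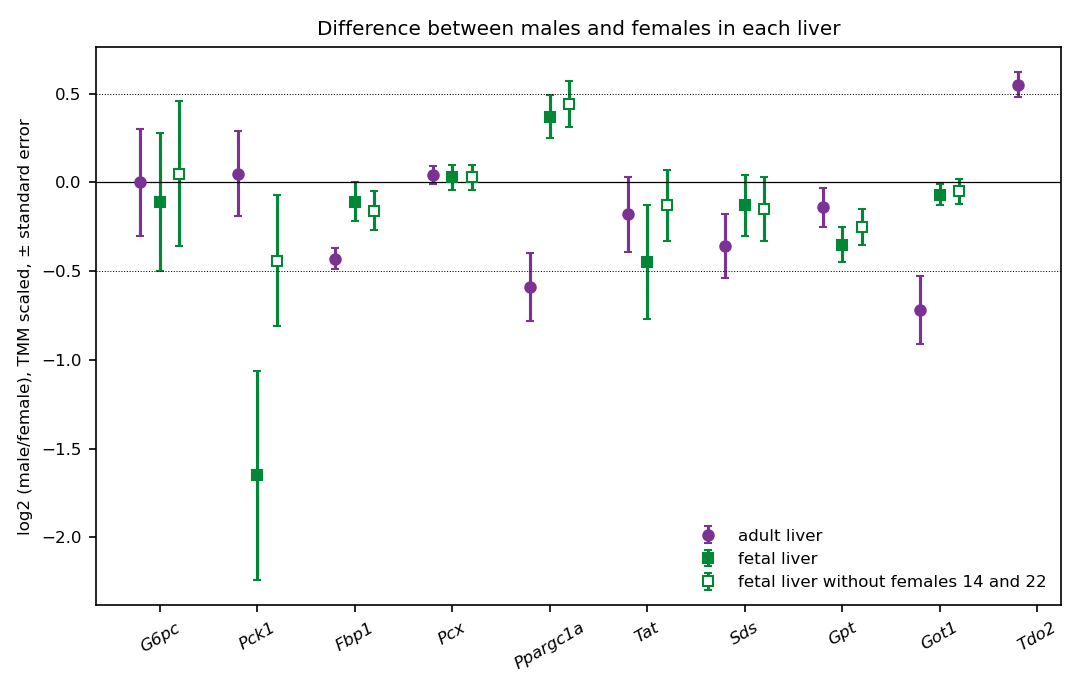
Log2 fold change of males over females (edgeR, TMM scaling) with its standard error in adult liver (circles), fetal liver (filled squares) and fetal liver without females 14 and 22 (open squares), and dotted lines at -0.5 and 0.5. Pck1 in fetal liver moves from -1.65 to -0.44 without the 2 livers, and Tdo2 is plotted for adult liver only because it had too few fetal reads to be tested.

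The sex difference itself differed between adult and fetal liver for 4 of 10 genes by the interaction term, against 13.7% of 13026 genes tested (5.19% higher and 8.53% lower). For Ppargc1a the adult minus fetal difference was -0.91 ± 0.23 (SE, edgeR, adjusted p = 0.00217) and for Got1 -0.60 ± 0.20 (SE, edgeR, adjusted p = 0.0209). Without fetal females 14 and 22 these were -0.96 and -0.61. Leaving out these livers does not bear on the reads outside genes. With that share, fetal sex and the high adult values of Ppargc1a go together, as given above. For Tdo2 it was 4.01 ± 0.85 (SE, edgeR, adjusted p = 0.000389), which rests on 8 fetal reads in males and 118 in females, 73 of them in female 22. It was 2.77 without females 14 and 22, with 41 reads left in females, 27 of them in female 21. For Pck1 it was 1.74 ± 0.61 (SE, edgeR, adjusted p = 0.0290) and 0.56 (adjusted p = 0.436) without these 2 livers.

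Adult livers of 1 sex differed widely in some of the genes and little in others. With sex means removed, the SD of log2 CPM was 0.828 for G6pc, larger than that of 99.4% of the 8295 genes averaging 10 CPM or above in adult liver, 0.610 for Pck1 (98.1%), 0.518 for Tat (96.8%), 0.483 for Ppargc1a (96.1%), 0.466 for Got1 (95.6%) and 0.414 for Sds (92.7%). Gpt (0.290), Tdo2 (0.188), Fbp1 (0.153) and Pcx (0.115) were nearer to or under the median of 0.221. Ppargc1a, at a mean of 9.86 CPM and 9 to 54 reads a library, is itself not among the 8295 genes. Counting error was not separated from its spread, and its high values were those of females 19 to 24, as given above. In Pck1, 6 males stood at 1412 to 2718 CPM and 6 at 3979 to 4513 CPM, and 8 females at 1719 to 3096 CPM and 4 at 3786 to 4381 CPM.

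Relations between the genes were computed over the 24 adult livers as Pearson's r of log2 CPM with sex means removed, for all 45 pairs. After adjustment 11 pairs passed p under 0.05 in the permutation test, all with positive r, and 15 did so unadjusted. The share of pairs that would pass among all adult liver genes was not computed, so 11 of 45 is not shown to be particular to these genes. By Spearman's rho 11 passed too, 10 of them in common. All 11 had the same sign within males and within females, and in the 16 livers with at least 40% and the 8 with under 40% of mapped reads on genes. Without those 8, 5 of the 11 still passed.

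Pck1 and Tat gave an r of 0.87 (adjusted permutation p = 0.000225) and a rho of 0.861 (adjusted permutation p = 0.00045), the raw p of 1e-05 being the smallest the resamples can give for each. It was 0.840 without the 2 livers farthest in Pck1, 0.894 in males and 0.814 in females. Livers high in Pck1 were high in Tat. Since Pck1 had a gap in its levels, r was also taken on each side of it, and was 0.498 among the 14 lower and 0.442 among the 10 higher livers. This split was chosen after the levels were seen. It narrows the range of Pck1, which by itself tends to lower r, and carries no test.

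Got1 and Sds gave 0.82 (adjusted permutation p = 0.000225) and a rho of 0.817 (adjusted permutation p = 0.00045), with an r of 0.756 without the 2 livers farthest in Sds, 0.823 in males and 0.826 in females. Female 18 was highest in both, at 599 and 469 CPM. G6pc and Pck1 gave 0.61 (adjusted permutation p = 0.0102) and a rho of 0.654 (adjusted permutation p = 0.00979), with an r of 0.592 without the 2 farthest, 0.705 in males and 0.485 in females, and 0.442 and 0.735 on the lower and higher side of the gap in Pck1. Without the 8 livers with under 40% of reads on genes, this pair did not pass (adjusted permutation p = 0.0783).

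**Figure D4:**
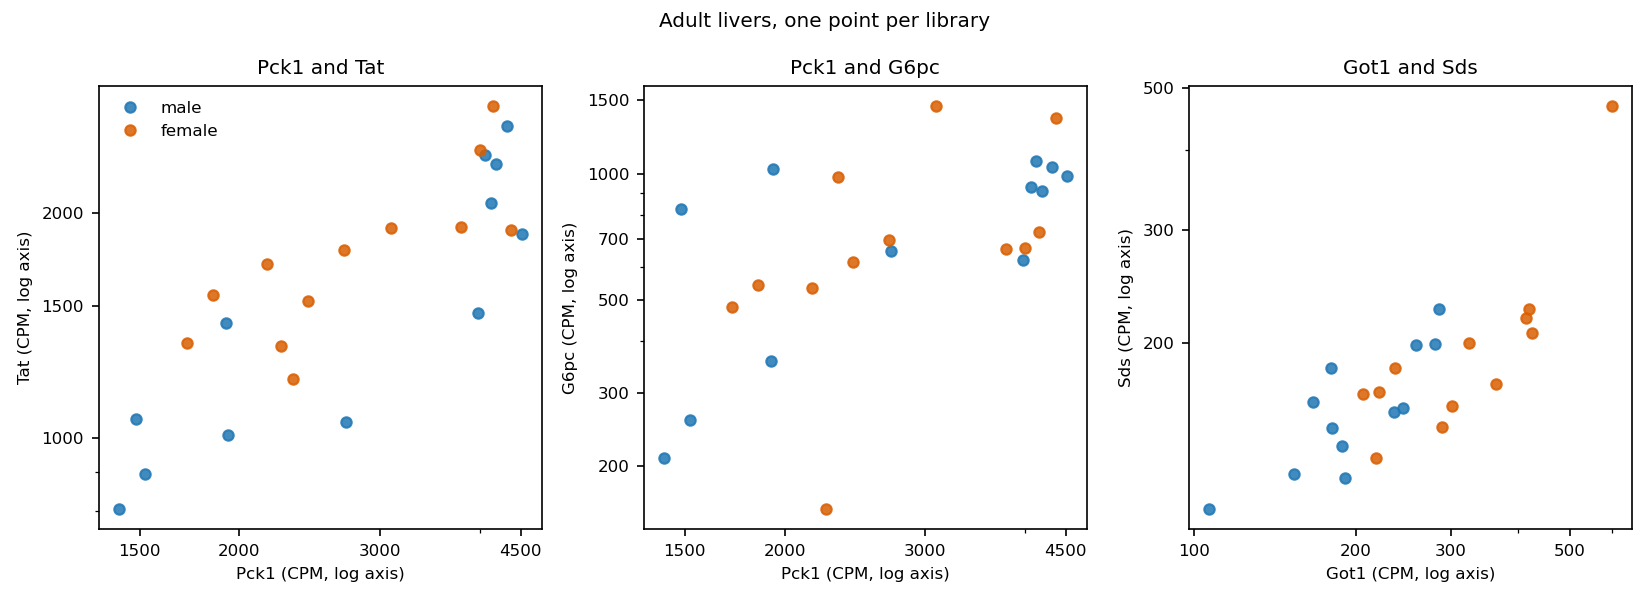
Levels in CPM (log axes) of Tat against Pck1, G6pc against Pck1 and Sds against Got1 in the 24 adult livers, males in blue and females in orange. Tat rises with Pck1 (r of 0.87) more closely than G6pc does (r of 0.61), and the point at the upper right of the panel of Got1 and Sds is female 18.

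The other pairs that passed were Tat with Sds (0.72), Got1 (0.60) and G6pc (0.55), Pck1 with Sds (0.57), and Fbp1 with Got1 (0.64), Gpt (0.64) and Sds (0.55), and Gpt with Got1 (0.57). For Pck1 and Sds r was -0.363 and 0.198 on the lower and higher side of the gap in Pck1. With the narrower range of Pck1, few livers and no test on each side, these values do not show whether the relation holds within them. Fbp1 and Got1 gave 0.223 in males and 0.832 in females. Pcx, Ppargc1a and Tdo2 were in none of the pairs that passed. Ppargc1a and Gpt had the lowest r at -0.46 (adjusted permutation p = 0.136), which was -0.753 in the 16 livers with at least 40%, where it passed (adjusted permutation p = 0.0123), and 0.644 in the 8 others.

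**Figure D5:**
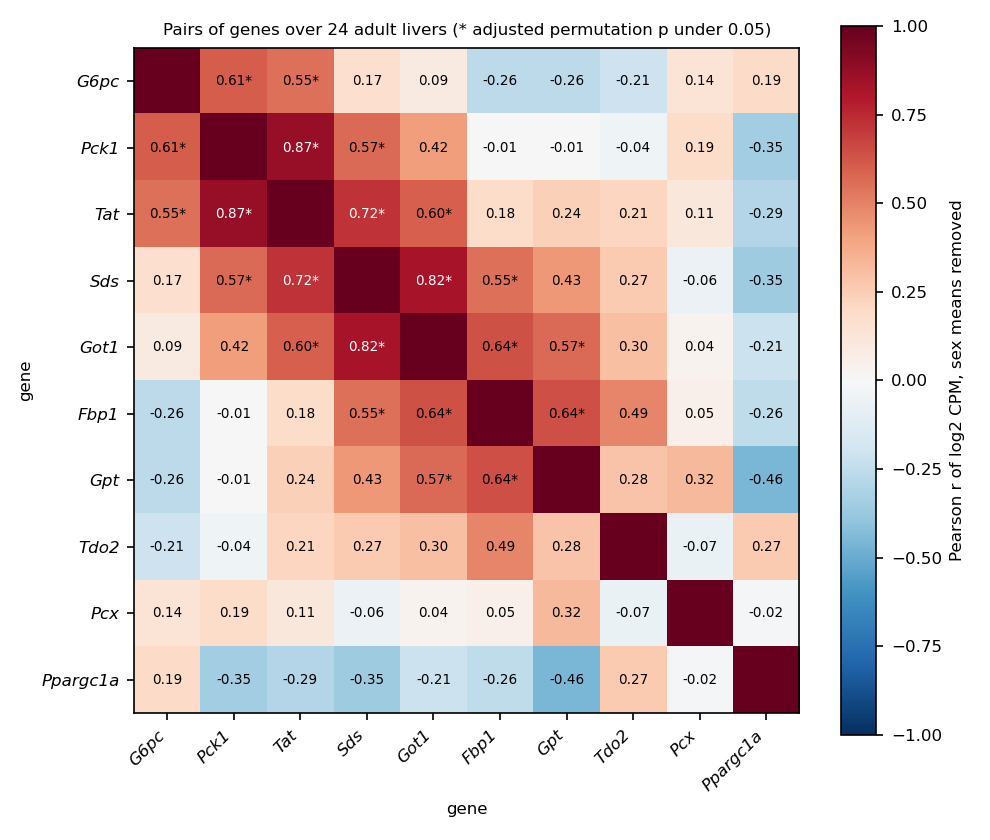
Pearson's r of log2 CPM for each pair of the 10 genes over 24 adult livers with sex means removed, as colour and number, with an asterisk where the adjusted permutation p is under 0.05. The 11 pairs with an asterisk lie among G6pc, Pck1, Tat, Sds, Got1, Fbp1 and Gpt, from 0.55 to 0.87.

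The percent of counted reads outside genes varied from 25.7 to 36.6 among adult livers and was related to some levels. Its r was 0.628 with Ppargc1a (adjusted permutation p = 0.0379), -0.569 with Gpt and -0.499 with Sds (both adjusted permutation p = 0.0499), over 10 relations. The rho was 0.629, -0.584 and -0.537 (permutation p = 0.00338, 0.00907 and 0.00816), and r without the 2 livers farthest in this percent was 0.606, -0.409 and -0.424. With this percent removed by regression, 7 of the 11 pairs passed. Females 13 to 18 were all under 30% and females 19 to 24 all at or above it. Permutations were made within sex and did not keep these sets apart, so the permutation p-values do not account for this split.

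Across the 8295 genes, some of those with the highest r with each of the 10 over the 24 adult livers are given as a description. Slc25a25 (0.916), Igfbp1 (0.852) and Irs2 (0.797) were most like G6pc, Tsc22d3 (0.917), Pim3 (0.907) and Tat (0.870) most like Pck1, and Klf15 (0.892), Pck1 (0.870) and Fh1 (0.859) most like Tat. Klf15 is a transcription factor and Tsc22d3 a target gene of the glucocorticoid receptor. Arg1, the urea cycle arginase, was among the first 3 for both Sds (0.843) and Got1 (0.852). Sds also had Fh1 (0.826) and Asl (0.822), and Got1 had Slc25a15 (0.871) and Nnmt (0.833).

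Gpt was followed most closely by Aldh1l1 (0.941), Aldh4a1 (0.940) and Dcxr (0.932). Fbp1 had Hgd (0.847), Coq7 (0.808) and Mthfd1 (0.797), Pcx had Aldh2 (0.761) and Lipg (0.702), Ppargc1a had Hnrnpa2b1 (0.853), AW549877 (0.847) and Hrg (0.832), and Tdo2 had Slc7a2 (0.790), Phyh (0.755) and Slc38a4 (0.714). The 24 livers differ in depth and in the share of reads outside genes, as given above, and these values carry no test.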

How the data were processed

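RNA-seq read counts per gene in 64 samples, as the authors deposited them, were used without change. Per the submitters' processing notes, reads were aligned to mm10 with TopHat2 2.0.4 and Bowtie2 2.1.0, handled with SAMtools 0.1.18 and Picard, and counted with HTSeq, whose tallies of reads outside genes are in the same files. Those tallies were kept out of totals and tests. Whether counting used strand is not given in the sources used here.

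CPM is reads over the total on genes. Genes that passed filterByExpr were tested in edgeR 4.0.16 (R 4.3.3) with TMM scaling and a quasi-likelihood F test, two-sided, Benjamini-Hochberg adjusted over all genes tested and checked on simulated data; a gene was called at an adjusted p under 0.1 and a log2 fold change over 0.5 in size. Adult against fetal liver and fetal liver against ES cells had sex as a term, and the interaction had stage, sex and both together. Correlations used log2(CPM + 0.5) after TMM and 100000 two-sided permutations within sex in Python 3.11.15 (scipy 1.17.1). Alternatives were DESeq2 1.42.0, other scalings and filters, covariates and left-out libraries.

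The members and the gene and marker lists were chosen with earlier results of these data known, and the intestinal and adult liver genes after values were seen. Of 165 list genes, 3 were matched by an older symbol. Named were the 10 genes, their partners, up to 3 called list genes in each direction between adult and fetal liver, every list gene called between adult sexes, and the 3 genes most like each of the 10. A few genes that this rule names are not reported here. Coordinates and exons are from GENCODE on GRCm38, the build called mm10, and promoter windows from RefSeq (GRCm38.p6), cut at the GENCODE gene start.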

Additional observations from a re-analysis of the deposited data

Results flagged for a closer look

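Among the eight-cell embryos, 12 sets of values were tested for a value far from the rest (Dixon's test at 95%). Each set was 1 gene in the 6 embryos of 1 sex, so the sets share embryos and are not independent. Chance alone flags about 1 in 20 sets, and 5 were flagged. Fbp1 stood at 12 CPM (64 reads) in male 1 against 0 to 3.56 CPM in the other males, and at 6.87 CPM (37 reads) in female 10 against 0 to 0.906 CPM in the other females. Pcx was at 14.3 CPM (84 reads) in male 5 against 0 to 5.25 CPM. Tat was at 24.3 CPM (134 reads) in female 8 against 7.18 to 13.4 CPM. Sds had 4 reads (0.858 CPM) in male 3 and none in the other males, where any read at all would be flagged, and the rate of 1 in 20 does not hold for counts that are mostly 0. These are single amplified embryos, and whether the values come from the embryo or the amplification was not tested.

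The sex difference differed between adult and fetal liver by the interaction term for 4 genes, on the log2 scale by 4.01 for Tdo2, 1.74 for Pck1, -0.91 for Ppargc1a and -0.60 for Got1. Without fetal females 14 and 22 the value of Tdo2 was 2.77 and that of Pck1 0.56, and that of Ppargc1a goes with the 6 adult females that had at least 30% of counted reads outside genes.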

How the results depend on the processing

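All alternatives that leave out livers by their reads outside genes, that use this percent as a covariate, or that leave out fetal livers were chosen after seeing the data. Depth limits Tdo2, Pck1 and G6pc in fetal liver, whose counts were near the floor, and Ppargc1a in adult liver, which had 9 to 54 reads a library.

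The 10 calls of adult against fetal liver became 9 with DESeq2, which gave no adjusted p for Tdo2 (nor in the interaction, where it called 3), and 9 with plain totals and hepatocyte scaling, under which Pcx was 0.04 and -0.27. All genes split into 4079 higher and 4543 lower with TMM, 2368 and 6942 with plain totals and 1769 and 8271 with hepatocyte scaling. Replicate numbers did not pair samples: over 24 pairs of same-numbered adult and fetal livers, deviations correlated at -0.152 to 0.0628. With the replicate block, 10 genes were called in adult against fetal liver, and 3 in the interaction, where Pck1 was 1.16 (adjusted p = 0.207).

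For adult sex, 3 genes were called when any 1 liver was left out, 2 among livers under 30% of reads outside genes and 1 among those at or above it, with fewer samples. For fetal sex, the 1 call became 2 without an expression filter, 3 without the threshold of size, 0 with either read share as covariate, 0 without females 14 and 22, and 0 to 1 with 1 liver left out (0 without female 14). For fetal liver against ES cells 8 were called throughout. Of the pairs, 7 passed without the 8 livers under 40%, 6 with positive r and 1 with negative r (Ppargc1a and Gpt, -0.753), and 7 with reads outside genes removed. The cause was not tested.

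Some differences, most of them near 0, changed sign and did not pass the test after the change. For adult sex these were G6pc (0.01 with DESeq2 or its size factors, 0.00 with plain totals, 0.03 without a filter, without the livers under 40% or with reads outside genes as covariate, 0.25 without livers under 2000000 reads and 0.46 under 30% outside), Pck1 (-0.24 without the livers under 40%, -0.04 with the mapped share as covariate and -0.02 at or above 30%) and Pcx (-0.03 there). For fetal sex they were G6pc (0.05 without females 14 and 22), Pcx (-0.03 with the mapped share, -0.00 with hepatocyte scaling), Ppargc1a (-0.14) and Sds (0.10), both with reads outside genes as covariate. The main fetal value of Ppargc1a, given above, was not near 0 and was under the adjusted p threshold. With 1 liver left out, the adult sex difference ranged from -0.10 to 0.13 for G6pc and -0.01 to 0.12 for Pck1, and the fetal one from -0.26 to 0.04 for G6pc and -0.00 to 0.06 for Pcx.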
